A study of Rattus norvegicus with 9 samples.

Results

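NADPH oxidases are membrane enzymes that move electrons from NADPH to oxygen, and the dual oxidases (DUOX) and NADPH oxidases (NOX) with their partner proteins were followed here across the culture surfaces of rat pancreatic stellate cells. A list of 7 genes was described: the dual oxidases Duox1 and Duox2, their maturation factors Duoxa1 and Duoxa2, the oxidases Nox1 and Nox4, and Cyba, which encodes the shared membrane subunit p22phox. The array's probe table paired 6 of the 7 with a single-symbol entry of the value table, 1 entry each, out of 14506 genes, and Duoxa2 was not analysed here. The members were selected on the differences between surfaces measured on these same arrays, so their levels are given as a description, without tests.

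Once activated, pancreatic stellate cells resemble myofibroblasts and lay down scar matrix. Cells of male Sprague Dawley rats, isolated on a Nycodenz density gradient and seeded in 10 cm dishes, were kept for 72 hours in medium with 10% foetal bovine serum on uncoated plastic (4 arrays), on collagen I, the fibrillar collagen of scar (3 arrays), or on Matrigel, a laminin-rich basement membrane extract (2 arrays). RNA was read on Affymetrix Rat Gene 1.0 ST arrays, and the values are log2 expression as deposited. The sample titles carry a letter whose meaning is not stated (A, P, S and Z on plastic, A, P and Z on collagen I, A and S on Matrigel), and arrays are named by it below. A surface mean under log2 4.25, the 40th percentile of mean levels, is called dim. Separate animals are not named for the arrays, so a p-value here reflects the spread among these samples alone, which may be technical, and the number of arrays limits the precision.

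Dual oxidases release hydrogen peroxide at the cell surface and are best known from the thyroid, where the peroxide serves hormone synthesis, and from airway and gut epithelium. Each needs its own maturation factor to leave the endoplasmic reticulum, and each enzyme gene sits beside the gene of its factor. NOX1 and NOX4 need p22phox: NOX1 forms superoxide with organiser and activator proteins, whereas NOX4 is constitutively active, releases mainly hydrogen peroxide and is known in fibroblasts as a target of TGF-beta signalling. NOX2, encoded by Cybb, is the oxidase of phagocytes.

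In the RefSeq gene table (GRCr8) the 4 dual oxidase genes lie next to each other in the order Duox2, Duoxa2, Duoxa1 and Duox1. Promoter entries were found for 6 of the 7 members. The 250 bases before the annotated start are shown for Duoxa1 and Duox1, whose levels moved together, and for Duox2, which stayed dim. Capitals mark matches to any of 6 motifs searched on both strands: the TATA box (TATAAA), GC box (GGGCGG), AP-1 (TGANTCA), CRE (TGACGTCA), GAS (TTCNNNGAA) and TEAD (CATTCC) motifs. The windows are chr3:129714007-129714256 on the minus strand for Duoxa1, chr3:129715746-129715995 on the plus strand for Duox1 and chr3:129698754-129699003 on the minus strand for Duox2.
Duoxa1: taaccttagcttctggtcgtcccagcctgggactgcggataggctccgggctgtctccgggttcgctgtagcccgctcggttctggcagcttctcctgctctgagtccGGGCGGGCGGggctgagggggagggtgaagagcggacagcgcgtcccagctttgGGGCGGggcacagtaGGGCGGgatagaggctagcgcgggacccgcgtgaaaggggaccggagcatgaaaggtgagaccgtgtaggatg
Duox1: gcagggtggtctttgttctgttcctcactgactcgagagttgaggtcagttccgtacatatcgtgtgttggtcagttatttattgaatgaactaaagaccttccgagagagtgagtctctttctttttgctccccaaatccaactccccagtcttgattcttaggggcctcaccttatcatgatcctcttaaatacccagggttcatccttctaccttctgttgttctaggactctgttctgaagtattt
Duox2: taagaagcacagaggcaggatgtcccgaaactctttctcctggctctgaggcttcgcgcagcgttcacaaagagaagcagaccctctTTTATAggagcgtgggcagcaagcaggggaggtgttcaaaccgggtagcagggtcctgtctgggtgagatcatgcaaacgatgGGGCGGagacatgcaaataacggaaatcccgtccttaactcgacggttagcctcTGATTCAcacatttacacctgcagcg

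Duoxa1 and Duox1 are read in opposite directions away from each other, from annotated starts 1990 bases apart, and the RefSeq span of Duox1 already begins inside the Duoxa1 window. The Duoxa1 window had 66.4% G and C, 21 CpG pairs and 4 GC box matches, of which the pair farthest from the start overlap. GC boxes occurred in 30.5% of all 33469 promoters. The Duox1 window had 44.0% G and C, 4 CpG pairs and a match to none of the 6 motifs, where the median promoter had 51.2% and 5. The Duox2 window had 1 match each to the TATA box, the GC box and AP-1, motifs found in 12.9%, 30.5% and 6.34% of all promoters. The TATA box match, on the opposite strand as TTTATA, lay 163 to 158 bases before the start, and the AP-1 match 26 to 20 bases before it. These matches describe letters only and were not tested as binding sites.

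Duox1 was high on plastic and low on both matrices. The plastic arrays of letters A, P, S and Z read 9.58, 8.87, 9.70 and 9.42 for Duox1 (Entrez gene 266807), the collagen I arrays of A, P and Z read 6.24, 5.84 and 5.32, and the Matrigel arrays of A and S read 5.28 and 7.52. Every plastic array lay above every matrix array, while the Matrigel arrays lay on either side of the collagen I arrays. The mean was 9.39 ± 0.37 (SD, n = 4) on plastic, against 5.80 ± 0.46 (SD, n = 3) on collagen I and, with the widest spread, 6.40 ± 1.59 (SD, n = 2) on Matrigel. This was 12.1-fold lower on collagen I than on plastic, a log2 difference of -3.59 ± 0.48 (SE), and 7.97-fold lower on Matrigel, a difference of -2.99 ± 0.54. By fitted difference Duox1 ranked 2 among falls of 14506 genes on collagen I and 19 on Matrigel. Without the Matrigel array of letter A the Matrigel difference was -1.87, and without that of letter S it was -4.12. Within letters the collagen I difference was -3.34 for A, -3.04 for P and -4.10 for Z, and the Matrigel difference was -4.31 for A and -2.17 for S.

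Duoxa1, whose product escorts DUOX1 out of the endoplasmic reticulum, followed the same order array by array. For Duoxa1 (Entrez gene 311374) the plastic arrays of letters A, P, S and Z read 9.33, 8.59, 9.47 and 9.09, the collagen I arrays of A, P and Z read 6.48, 6.27 and 5.79, and the Matrigel arrays of A and S read 5.47 and 7.19. As for Duox1, the plastic array of letter P was the lowest of its surface, the collagen I array of letter Z the lowest of the collagen I arrays, and the Matrigel array of letter S far above that of letter A. Its means were 9.12 ± 0.38 (SD, n = 4) on plastic, 6.18 ± 0.36 (SD, n = 3) on collagen I and a more variable 6.33 ± 1.22 (SD, n = 2) on Matrigel. The Duoxa1 difference from plastic was -2.94 ± 0.39 (SE) on collagen I, 7.68-fold lower, and -2.79 ± 0.44 on Matrigel, 6.91-fold lower. Without the Matrigel array of letter A the Duoxa1 difference on Matrigel was -1.93, and without that of letter S it was -3.65. The comparisons with plastic share the plastic arrays, so they are not separate observations of the plastic level.

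Between the matrices neither Duox1 nor Duoxa1 separated. The Matrigel mean of Duox1 was 0.60 ± 0.57 (SE) above that of collagen I, with overlapping arrays, and this difference was 1.72 without the Matrigel array of letter A and -0.52 without that of letter S. For Duoxa1 the difference was 0.15 ± 0.46, becoming 1.01 and -0.71. In order of mean level both genes ran from plastic down to Matrigel and collagen I, and the last pair did not differ beyond their spread.

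Duox2 was dim on every array. For Duox2 (Entrez gene 79107) the plastic arrays of letters A, P, S and Z read 3.26, 3.32, 3.65 and 3.26, the collagen I arrays of A, P and Z read 3.19, 3.18 and 3.14, and the Matrigel arrays of A and S read 3.26 and 3.21. All 9 values lay below the dim level, so no fold is given. The plastic array of letter S was the highest, and the plastic and Matrigel arrays overlapped.

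**Figure D1:**
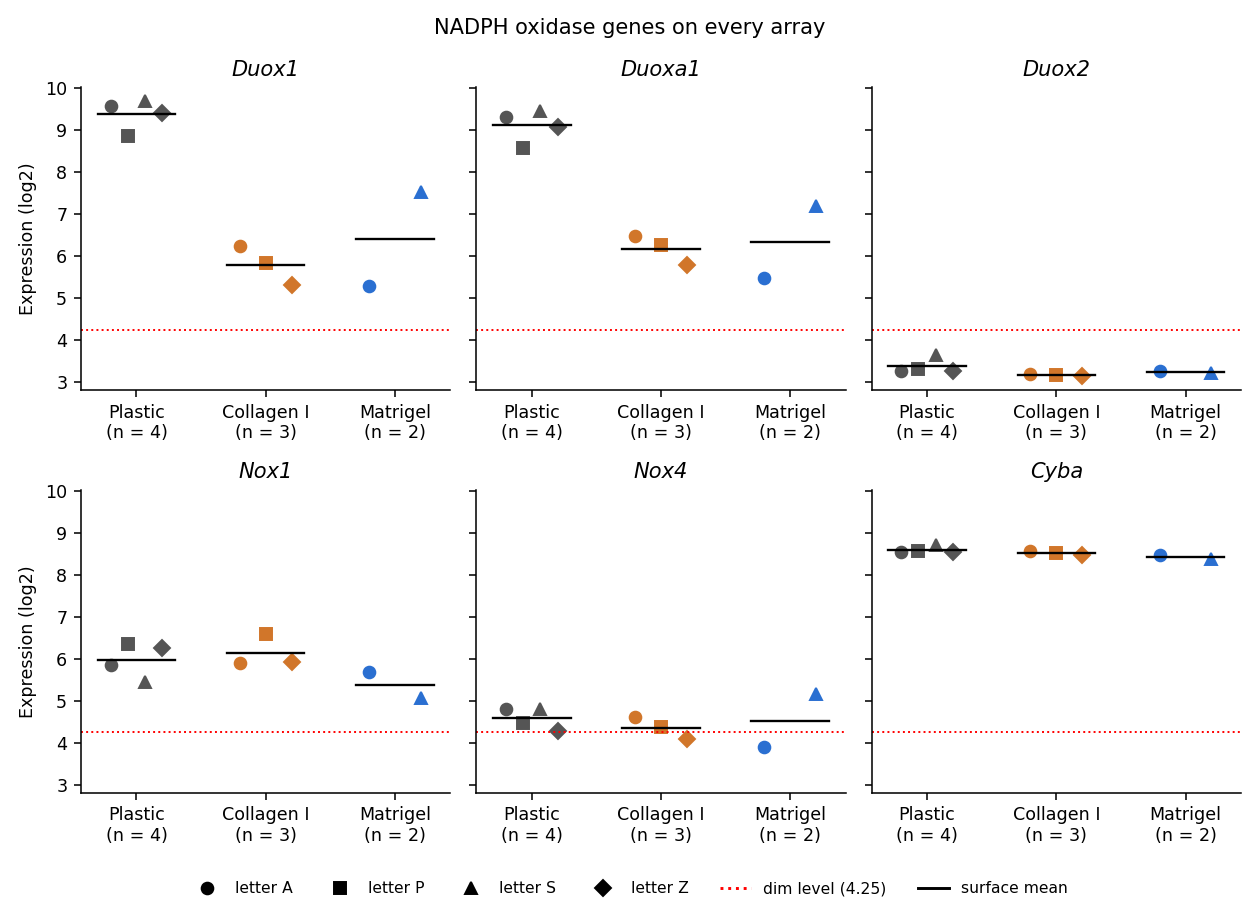
Log2 expression (vertical axis) of the 6 measured members on each of the 9 arrays, by surface; marker shapes give the title letter, black bars the surface means and the red dotted line the dim level of 4.25. Duox1 and Duoxa1 sit between 8.59 and 9.70 on plastic and between 5.28 and 7.52 on the matrices, Duox2 stays below the dim line, and Cyba stays between 8.38 and 8.71.

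Nox1 varied more between title letters than between surfaces. For Nox1 (Entrez gene 114243) the plastic arrays of letters A, P, S and Z read 5.85, 6.35, 5.46 and 6.26, the collagen I arrays of A, P and Z read 5.91, 6.60 and 5.94, and the Matrigel arrays of A and S read 5.69 and 5.08. The letter P arrays were the highest on their surfaces and the letter S arrays the lowest, and collagen I and plastic overlapped throughout. The order of means was collagen I at 6.15 ± 0.39 (SD, n = 3), plastic at 5.98 ± 0.41 (SD, n = 4) and Matrigel at 5.38 ± 0.43 (SD, n = 2). The first pair did not differ beyond its spread, at 0.17 ± 0.26 (log2, SE), and changed sign to -0.06 without collagen replicate 2 and to -0.02 with the title letter as a block. Matrigel differed from plastic by -0.60 ± 0.30 with overlapping arrays, and from collagen I by -0.77 ± 0.32 with arrays that did not overlap. The pooled SD of Nox1 was 0.41 within a surface and 0.19 within a letter, a ratio of 0.469 against a median of 1.10 over all genes, and 2.53% of genes had a ratio as low. With the letter as a fixed block the Matrigel difference from collagen I was -0.26 and that from plastic -0.28. Letter P has no Matrigel array and letter S no collagen I array, so letter and surface are only partly separable for Nox1.

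Nox4 lay close to the dim level on all surfaces. For Nox4 (Entrez gene 85431) the plastic arrays of letters A, P, S and Z read 4.82, 4.48, 4.82 and 4.28, the collagen I arrays of A, P and Z read 4.61, 4.39 and 4.09, and the Matrigel arrays of A and S read 3.91 and 5.16. The Matrigel pair, with a mean of 4.53 ± 0.88 (SD, n = 2), spanned the range of all other arrays. Plastic averaged 4.60 ± 0.27 (SD, n = 4) and collagen I 4.36 ± 0.26 (SD, n = 3), and in each shared letter the collagen I array was the lower, by 0.09 to 0.21. Differences from plastic were -0.24 ± 0.28 (SE) on collagen I and -0.07 ± 0.32 on Matrigel, the latter 0.55 without the Matrigel array of letter A and -0.69 without that of letter S.

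Cyba, the partner subunit of NOX1, NOX2 and NOX4, was nearly constant. For Cyba (Entrez gene 79129) the plastic arrays of letters A, P, S and Z read 8.55, 8.57, 8.71 and 8.55, the collagen I arrays of A, P and Z read 8.58, 8.54 and 8.48, and the Matrigel arrays of A and S read 8.47 and 8.38. The Matrigel arrays were the lowest of all, but the whole range over the surface means was 0.17 on the log2 scale. The difference from plastic was -0.17 ± 0.07 (SE) on Matrigel and -0.06 ± 0.06 on collagen I, and the Matrigel value was -0.08 after quantile normalization was applied again.

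**Figure D2:**
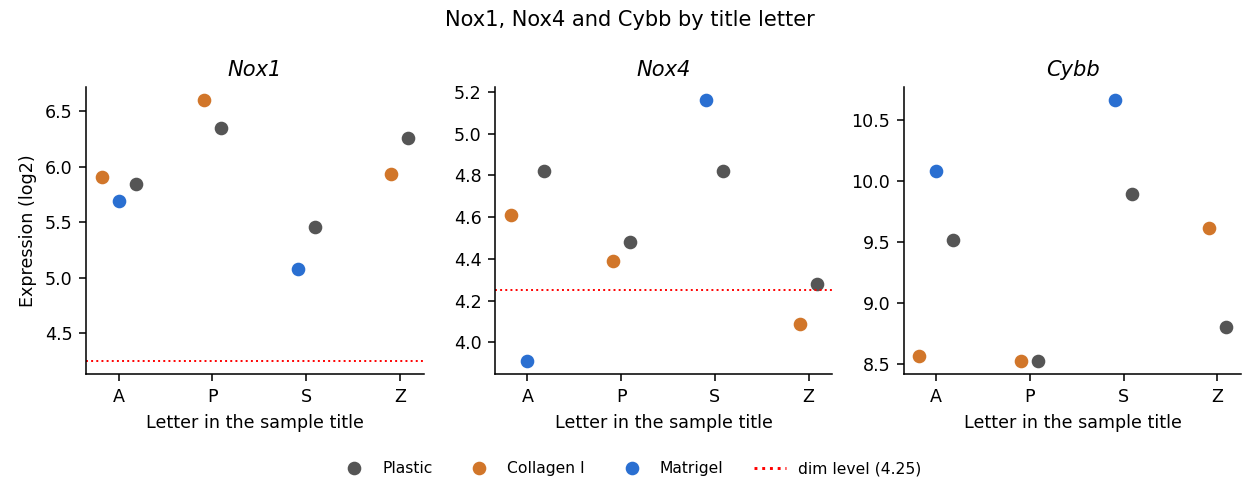
Log2 expression (vertical axes, which do not start at 0) of Nox1, Nox4 and Cybb by the letter in the sample title, coloured by surface, with the dim level of 4.25 dotted where it falls in range. Nox1 arrays of 1 letter lie within 0.38 of each other, while Nox1 spans 5.46 to 6.35 on plastic alone.

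Counting members, 3 of 6 had Matrigel arrays wholly below the plastic arrays (Duox1, Duoxa1 and Cyba), where 16.6% of all 14506 genes were wholly lower. On collagen I the arrays of 3 of 6 lay wholly below plastic (Duox1, Duoxa1 and Duox2), against 9.20% of all genes. Between Matrigel and collagen I the arrays of 3 of 6 did not overlap, Nox1 and Cyba lower on Matrigel and the dim Duox2 higher, against 29.5% of all genes in either direction (16.4% lower and 13.0% higher). The median difference of the members from plastic was -0.38 on Matrigel and -0.22 on collagen I, beside -0.01 and 0.00 over all genes. Since these comparisons were known when the members were listed, nothing is read from the counts.

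The partners and regulators of the NOX enzymes came from a list of 17 genes, 13 of them measured. Of these 1 rose and 1 fell on Matrigel against plastic, and 1 rose and 1 fell on collagen I, by limma over all genes at an adjusted p under 0.05, where 10.4% of all genes (4.52% higher, 5.85% lower) and 6.12% (2.95% higher, 3.17% lower) passed. Between the matrices limma called 0 of the 13, where 2.67% of all genes passed (1.21% higher, 1.45% lower). At an unadjusted p under 0.05 there were 2 of the 13, and 2456 of all 14506 genes. The median difference of the 13 was 0.25 on Matrigel and -0.29 on collagen I, beside -0.01 and 0.00 over all genes. The gene that rose was Sh3pxd2a, which encodes TKS5, a podosome scaffold that can act as a NOX organiser. Sh3pxd2a was 0.62 ± 0.11 (log2, SE) higher on Matrigel (limma, adjusted p = 0.0112) and 0.58 ± 0.10 higher on collagen I (adjusted p = 0.0112), from a plastic mean of 6.39. The gene that fell was Rap1a, a small GTPase found with the phagocyte oxidase, by 0.47 ± 0.12 on Matrigel (adjusted p = 0.0492) and by 0.52 ± 0.11 on collagen I (adjusted p = 0.0268). Sh3pxd2a did not pass on Matrigel without Matrigel replicate 1 (adjusted p = 0.0841, from 0.00604 to 0.0841 over its alternatives). Rap1a did not pass on Matrigel without Matrigel replicate 1, where its difference was -0.27, collagen replicate 1 or 2 or any single plastic replicate (adjusted p from 0.0683 to 0.291), nor on collagen I without any single collagen or plastic replicate (adjusted p from 0.0504 to 0.0946) or with the title letter as a block (adjusted p = 0.0559). Quantile normalization applied again, only the compared groups, array weights and the letter block also ended the call of Rap1a on Matrigel (adjusted p = 0.118, 0.0832, 0.061 and 0.0591).

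The phagocyte oxidase genes Cybb, Ncf1, Ncf4 and Rac2 had their highest means on Matrigel, and none of these passed the test in any comparison. For Ncf4 and Rac2 the highest single array was on plastic, at 6.91 and 7.62, against at most 6.58 and 7.42 on Matrigel. The plastic arrays of letters A, P, S and Z read 9.51, 8.52, 9.89 and 8.80 for Cybb (Entrez gene 66021), the collagen I arrays of A, P and Z read 8.56, 8.52 and 9.61, and the Matrigel arrays of A and S read 10.08 and 10.66. Both Matrigel arrays were above every other array, yet Cybb did not pass at 1.19 ± 0.43 (log2, SE) above plastic (limma, adjusted p = 0.133) or 1.48 ± 0.46 above collagen I (adjusted p = 0.145). Matrigel has only letters A and S. The plastic arrays of these letters, at 9.51 and 9.89, also lay above those of P and Z, at 8.52 and 8.80. Letter and surface are therefore only partly separable for Cybb as well. The cytosolic subunit genes had Matrigel minus plastic differences of 0.58 ± 0.29 for Ncf1 (adjusted p = 0.271) and 0.39 ± 0.36 for Ncf4 (adjusted p = 0.585). Rac2, the GTPase of the leukocyte complex, differed by 0.27 ± 0.35 (adjusted p = 0.712), and Rac1, its widely expressed relative, by -0.14 ± 0.08 (adjusted p = 0.360). Macrophages express Cybb, and the mean of their markers was also highest on Matrigel. Not every marker followed, as Cd74 averaged 6.90 on collagen I against 5.03 on plastic and 5.13 on Matrigel. The mean of 18 measured macrophage markers of 19 listed ran from 7.43 to 7.64 on Matrigel, from 6.23 to 7.17 on plastic and from 6.20 to 7.11 on collagen I, with 2 of 18 called higher on Matrigel than on plastic (4.52% of all genes were) and only Marco dim on all surfaces. On plastic the mean of these markers was 6.89 and 7.17 for letters A and S, and 6.23 for both P and Z. The part of macrophages in the Cybb values was not tested, and in bulk RNA more cells of a type and more RNA per cell cannot be told apart.

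The organiser and activator genes that serve NOX1 in colon, Noxo1 and Noxa1, and the inner ear oxidase gene Nox3 were dim on all surfaces, with means from 2.79 to 3.34. Cybc1, the chaperone of NOX2, was 0.31 ± 0.10 below plastic on collagen I and did not pass (limma, adjusted p = 0.134). Poldip2, which binds p22phox and raises NOX4 activity, differed from plastic by -0.01 ± 0.08 on Matrigel and -0.10 ± 0.07 on collagen I (adjusted p = 0.954 and 0.526). Nrros, which lowers NOX2 in phagocytes, had a dim mean of 3.95 on collagen I beside 4.42 on plastic and 4.76 on Matrigel.

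**Figure D3:**
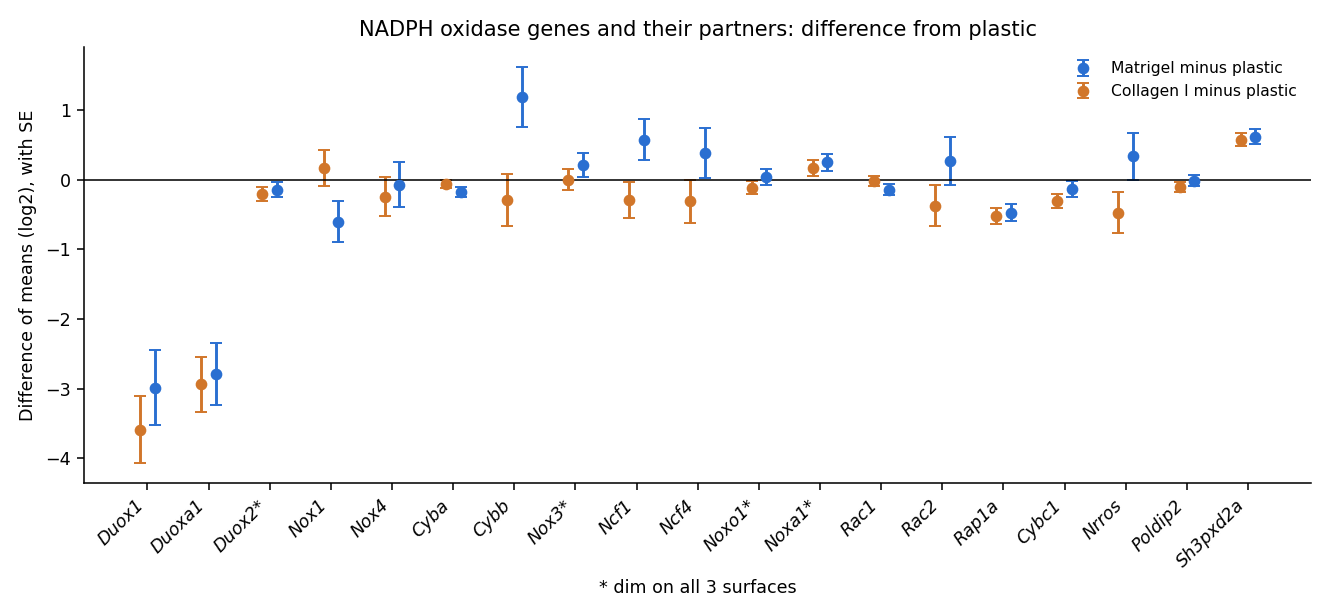
Difference of each matrix mean from the plastic mean (log2, vertical axis) with its standard error for the 6 measured members and the 13 measured partner genes; asterisks mark genes dim on all 3 surfaces. Duox1 and Duoxa1 lie between -2.79 and -3.59, whereas the partner genes lie between -0.52 and 1.19.

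The measured genes on either side of the dual oxidase cluster differed from plastic by less than Duox1 and Duoxa1 did. Sord, the sorbitol dehydrogenase gene and the nearest measured gene on the Duox2 side, fell by 0.86 ± 0.17 (log2, SE) on Matrigel (limma, adjusted p = 0.0141) and by 0.65 ± 0.15 on collagen I (adjusted p = 0.0356), from 9.27 on plastic. Slc28a2, a nucleoside transporter gene and the nearest measured gene after Duox1, differed by -0.82 ± 0.28 on Matrigel and -0.62 ± 0.24 on collagen I and did not pass (adjusted p = 0.108 and 0.211). Farther out, Gatm, the creatine synthesis gene, differed by 0.29 ± 0.08 on Matrigel (adjusted p = 0.0594) and 0.00 ± 0.07 on collagen I, Afg2b lay at the dim level, and C3h15orf48, Terb2 and Trim69 were dim. B2m, the MHC class I light chain gene and the fourth on the Duox2 side, differed by -0.03 ± 0.22 and -0.20 ± 0.20. Sord did not pass on Matrigel without Matrigel replicate 1 (adjusted p = 0.112, from 0.00705 to 0.112 over its alternatives). On collagen I the call of Sord was lost when the collagen array of letter P or Z, or the plastic array of letter A, S or Z, was left out (adjusted p from 0.0784 to 0.105), or with the title letter as a block (adjusted p = 0.0808).

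**Figure D4:**
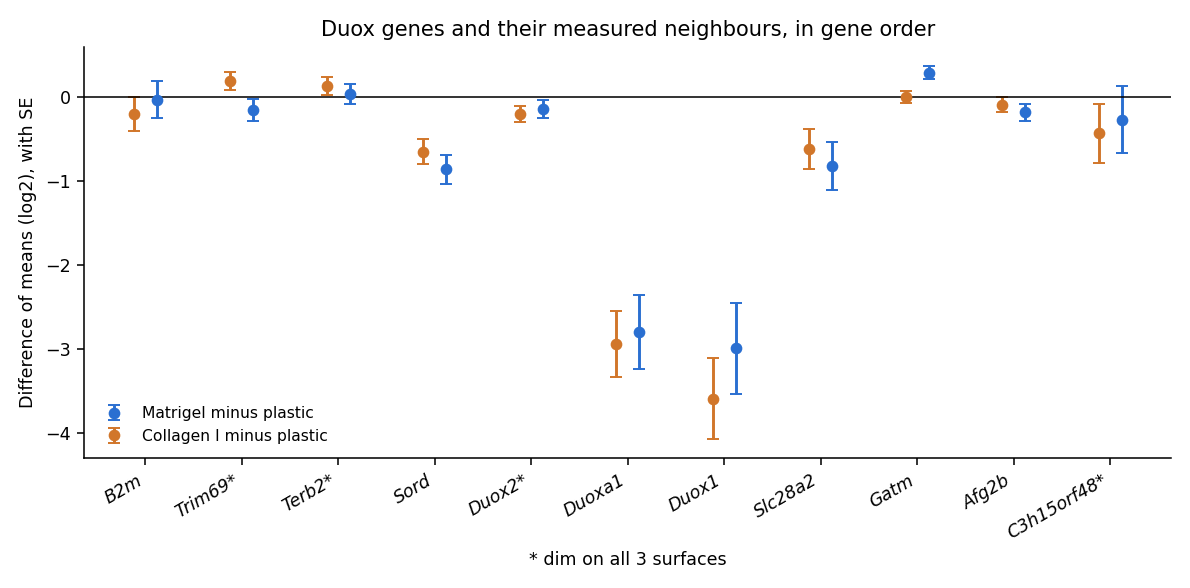
Difference of each matrix mean from the plastic mean (log2, vertical axis) with its standard error for the measured dual oxidase genes and the 4 nearest measured genes on each side, placed in RefSeq gene order without distances; asterisks mark genes dim on all 3 surfaces. The Duoxa1 and Duox1 points lie at -2.79 or below, and the nearest to them among the neighbours is Sord at -0.86.

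Over the 9 arrays the profile of Duox1 was closest to that of Duoxa1. After each gene was centred on its mean, the root mean square difference between Duox1 and Duoxa1 was 0.32 on the log2 scale, the smallest of 14495 named genes for either. Next to Duox1 came Fzd4, a Wnt receptor gene, at 0.46, Cyp11b1, a steroid hydroxylase gene, at 0.57, Kcnd3, a potassium channel gene, at 0.60, and Wnt4, a Wnt ligand gene, at 0.61. Next to Duoxa1 came Wnt4 at 0.32, Fzd4 at 0.42, Ramp3, a receptor co-protein gene, at 0.44, and Agtr1a, an angiotensin receptor gene, at 0.45. Kcnd3 averaged 6.81 ± 0.18 (SD, n = 4) on plastic and was dim on both matrices, and Wnt4 averaged 7.85 ± 0.20 on plastic against 5.50 ± 0.33 (SD, n = 3) with collagen I and 5.19 ± 1.18 (SD, n = 2) with Matrigel. These genes were picked for their likeness, so their levels are a description. The other members were far from Duox1, with Nox4 at 1.62, Duox2 at 1.70, Cyba at 1.75 and Nox1 at 1.88. Each of these genes had its own surface means within a range of at most 0.77, too narrow for such a ranking.

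**Figure D5:**
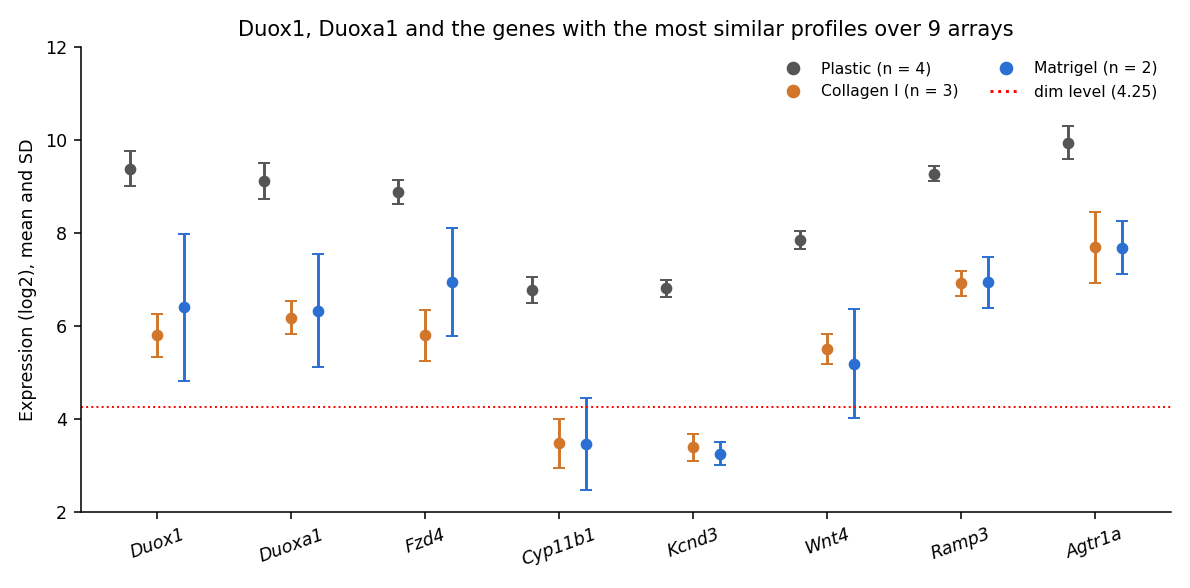
Mean log2 expression (vertical axis) with SD by surface for Duox1, Duoxa1 and the genes whose centred profiles over the 9 arrays were closest to either; the dotted line is the dim level of 4.25. All are highest on plastic, and the Matrigel SD is wide for Duox1 (1.59) and Duoxa1 (1.22).

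Enzymes that remove the products of these oxidases, and channels that pass them, were read from fixed lists. Of 25 measured genes for superoxide and hydrogen peroxide removal, 4 rose and 3 fell on Matrigel and 3 rose and 3 fell on collagen I against plastic, where 4.52% of all genes rose and 5.85% fell on Matrigel and 2.95% and 3.17% on collagen I. These genes had median differences of 0.00 and -0.06 beside -0.01 and 0.00 over all genes. Gpx8, a glutathione peroxidase gene of the endoplasmic reticulum, fell by 0.77 ± 0.10 on Matrigel (limma, adjusted p = 0.00255), and Txnrd2, the mitochondrial thioredoxin reductase gene, rose by 0.53 ± 0.07 on collagen I (adjusted p = 0.00312). Gsr, the glutathione reductase gene, was 0.64 ± 0.08 higher on Matrigel than on collagen I (adjusted p = 0.0138). Between these surfaces 1 of the 25 was higher and 1 lower, where 1.21% and 1.45% of all genes were. That call of Gsr was lost with only these surfaces in the fit (adjusted p = 0.128) and with the title letter as a block (adjusted p = 0.0692), within a range of 0.00829 to 0.128. Of 6 measured water channels that can pass hydrogen peroxide, Aqp1 fell by 0.66 ± 0.11 on Matrigel (adjusted p = 0.00894) and by 0.78 ± 0.10 on collagen I (adjusted p = 0.00296) and the others did not pass. Aqp1 did not pass on Matrigel without Matrigel replicate 2 (adjusted p = 0.0586, from 0.00606 to 0.0586 over its alternatives).

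Of 23 other measured enzymes that release superoxide or peroxide, 1 rose and 5 fell on Matrigel against plastic, where 4.52% and 5.85% of all genes did. On collagen I 1 rose and 2 fell, against 2.95% and 3.17% of all genes, and the matrices' counts were not compared by a test. The 5 genes that fell on Matrigel were lysyl oxidase genes, whose products form peroxide while cross-linking collagen. Loxl3 fell by 0.85 ± 0.08 (log2, SE; limma, adjusted p = 0.000643), and Lox fell by 0.47 ± 0.11 (adjusted p = 0.0342). Loxl1, Loxl2 and Loxl4, named after their values were seen and not run under the alternatives, fell by 1.72 ± 0.33, 0.71 ± 0.16 and 0.74 ± 0.19 (adjusted p = 0.0139, 0.0247 and 0.0448). Lox did not pass with the title letter as a block (adjusted p = 0.0975), or when Matrigel replicate 1, collagen replicate 2, or the plastic array of letter A, P or Z was left out (adjusted p from 0.0554 to 0.206). Smox, which oxidises spermine with release of peroxide, rose by 1.03 ± 0.14 on Matrigel (adjusted p = 0.00275), and Maob, the mitochondrial amine oxidase gene, fell by 1.22 ± 0.19 on collagen I (adjusted p = 0.00692). Limma called 0 of 4 measured peroxidases and 0 of 8 thyroid hormone synthesis genes in all 3 comparisons. Of all genes 10.4% were called on Matrigel and 6.12% on collagen I against plastic, and 2.67% between the matrices. At an unadjusted p under 0.05 there were 0 of either list on Matrigel and 1 of each on collagen I against plastic. Of all 14506 genes 3503 and 2763 had such a p. Of these peroxidases 3 were dim, as were 7 of the 8 thyroid genes.

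Signals known to act on these oxidases were measured as well. Of 10 measured TGF-beta ligands, receptors and SMADs, 2 rose and 2 fell on each matrix against plastic, where 10.4% of all genes passed on Matrigel and 6.12% on collagen I. The ligand gene Tgfb1 was 2.41 ± 0.32 (log2, SE) higher on collagen I (limma, adjusted p = 0.00313), Tgfb3 was lower by -1.92 ± 0.21 on Matrigel and -1.24 ± 0.19 on collagen I (adjusted p = 0.00147 and 0.00629), and Smad7, the inhibitory SMAD, was 1.24 ± 0.18 higher on collagen I (adjusted p = 0.00459). The ligand gene Tgfb2 was lower by -2.13 ± 0.40 on collagen I (adjusted p = 0.0169) and by -1.80 ± 0.46 on Matrigel (adjusted p = 0.0416). Its Matrigel call was lost in 8 of 18 alternatives, among them leaving out either Matrigel array, the collagen array of letter P or Z, or the plastic array of letter P or Z (adjusted p from 0.0553 to 0.232). The Matrigel calls of Tgfb1 and Smad7 were lost without Matrigel replicate 1 (adjusted p = 0.135 and 0.0649). Of 12 measured receptors and factors of IL-4, IL-13 and interferon-gamma, cytokines that raise dual oxidase expression in epithelium, 1 fell on collagen I. This was the kinase gene Jak1, by 0.51 ± 0.10 (adjusted p = 0.0212), which did not pass when any single collagen array, or the plastic array of letter A or Z, was left out (adjusted p from 0.0526 to 0.0809). On Matrigel limma called 0 of the 12, with 3 at an unadjusted p under 0.05, as had 3503 of all 14506 genes.

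Some defining genes of the labelled cell type were bright on every array, with Col1a1 from 12.45 to 12.95, Vim from 12.09 to 12.68 and Acta2 from 8.95 to 11.33 over all arrays, while Gfap and Ngfr were dim on all surfaces and Lrat on both matrices. Of the 14 stellate cell markers 1 rose and 3 fell on Matrigel, where 4.52% of all genes rose and 5.85% fell. On collagen I 1 rose and 1 fell, where 2.95% and 3.17% of all genes did. Fn1, the fibronectin gene, rose by 0.35 (log2) on Matrigel (limma, adjusted p = 0.00899). Postn, the periostin gene, rose by 2.29 on collagen I (limma, adjusted p = 0.00962). Des, which encodes desmin, fell by 1.93 ± 0.13 (log2, SE) to 4.84 on Matrigel and by 0.77 ± 0.12 on collagen I, from 6.77 on plastic (limma, adjusted p = 0.000208 and 0.0058). Thy1 fell by 2.04 ± 0.20 on Matrigel (adjusted p = 0.000935) and Col3a1 by 0.93 ± 0.21 (adjusted p = 0.0238), the latter not passing when Matrigel replicate 1 or the plastic array of letter P, S or Z was left out (adjusted p from 0.0506 to 0.174) or with array weights (adjusted p = 0.0513). The mean of the 14 stellate cell markers ran from 9.24 to 9.36 on plastic, 9.21 to 9.41 on collagen I and 8.85 to 8.87 on Matrigel. Beside the Duox1 and Duoxa1 values stand those of the other cell types. The islet marker mean was 6.13 to 7.22 on Matrigel, 4.90 to 5.69 on plastic and 5.12 to 5.72 on collagen I. Of 14 measured islet markers limma called 8 higher and 0 lower on Matrigel than on plastic, where 4.52% and 5.85% of all genes were. Against collagen I, 2 were called higher and 0 lower on Matrigel, where 1.21% and 1.45% of all genes were. The hormone genes Ins1 and Gcg averaged 9.80 and 8.74 on plastic, 10.73 and 8.83 on collagen I, and 11.76 and 10.79 on Matrigel. The mean of 17 acinar markers, 11 of them dim on all surfaces, was 3.79 to 4.53 on Matrigel, 3.27 to 3.45 on plastic and 3.27 to 3.61 on collagen I. The mean of 14 duct and epithelial markers, 9 of them dim on all surfaces, was 3.82 to 4.37 on Matrigel, 3.47 to 3.66 on plastic and 3.75 to 3.86 on collagen I. Neutrophil markers, 9 of 10 dim on all surfaces, ran from 3.47 to 3.65, 3.04 to 3.31 and 3.32 to 3.60, and 9 endothelial markers from 4.36 to 4.43, 4.16 to 4.35 and 4.19 to 4.32. In the duct list Spp1, which encodes osteopontin, averaged 9.33 on plastic against 11.77 with collagen I and 12.20 with Matrigel, and in the neutrophil list Mmp9, a gelatinase gene and its only marker that was not dim, averaged 7.15, 9.49 and 10.25. Spp1, Mmp9, Ins1, Gcg and, among the macrophage markers, Cd74 were singled out after their values were seen. The part of these markers, and of the macrophage markers given above, in the Duox1 and Duoxa1 values was not tested.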

How the data were processed

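Rat pancreatic stellate cells were profiled on 9 arrays over 3 surfaces. The authors deposited log2 expression values made with RMA, per the submitters' processing notes; which software version and genome build were used is not given in the sources used here. Quantile normalization within RMA gives all arrays nearly the same distribution, and near-identical relatives can share probe signal. Of 29215 entries, 15310 had 1 symbol, 323 several and 13582 none, and the brightest entry was kept for each of 14506 genes. Members and lists were chosen with earlier results of these data known.

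Differences were fitted with limma 3.58.1 (R 4.3.3) over all 9 arrays with 1 mean per surface, and adjusted by Benjamini-Hochberg over all genes in each comparison. A call is a two-sided adjusted p under 0.05. The fit was tested on simulated data. Differences from dim means are not given as folds.

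The text names all members, all measured NOX partners, at most 4 genes with the smallest p of each other pathway list, stellate cell markers, the 4 measured genes on each side of the dual oxidase cluster, and the 5 genes closest to Duox1 and Duoxa1. Same-letter deviations of collagen I and plastic correlated across genes (r = 0.196, 0.234 and 0.269). The collagen I array of letter A and the plastic array of letter S, of different letters, reached 0.243. For Matrigel with plastic the same-letter values were -0.131 and 0.406. Pairing by letter is therefore not settled. The main fit leaves the letter out, and differences within a letter are given as a description. Promoter sequences are those of RefSeq (GRCr8). Protein sequences were not analysed here.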

Additional observations from a re-analysis of the deposited data

Results flagged for a closer look

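In 7 of 74 genes looked at, 1 of the 4 plastic arrays lay far from the other plastic arrays for their range, where chance gives about 1 in 20. In 5 of these the array was that of letter S (plastic replicate 3). Duox2 read 3.65 there against 3.26 to 3.32 on the others, and Cyba read 8.71 against 8.55 to 8.57. Noxo1 read 3.55 there against 3.18 to 3.22 and Gfap 2.74 against 2.45 to 2.50, both dim. Lox, a lysyl oxidase gene, was lowest there at 10.93, against 11.11 to 11.12. Il4r, the interleukin 4 receptor gene, read 10.50 on plastic replicate 2 against 10.28 to 10.30, and Maob read 5.05 on plastic replicate 4 against 5.62 to 5.74.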

How the results depend on the processing

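Differences of the 6 members were recomputed in 13 alternatives each, and 219 of 234 values moved by less than 1 SD between replicates. The other 15 values all involve Matrigel, which has 2 arrays. In 11 values the sign changed, all in weak differences: Matrigel against collagen I for Duox1, Duoxa1, Duox2 and Nox4, collagen I against plastic for Nox1, and Matrigel against plastic for Nox4. Duox1 and Duoxa1 kept their sign against plastic in each alternative run. Of 3672 values for other named genes, 110 lost a call, 22 gained one and none reversed. Matrigel against plastic had 1504 calls, 1504 with the title letter as a fixed block and 1760 as a random one, and 759 (without Matrigel replicate 1) to 1461 leaving out 1 array, with 989 without plastic replicate 1. Collagen I against plastic had 888 calls, 1072 and 1084 with the block, and 552 (without plastic replicate 1) to 870 leaving out 1 array, with 555 without collagen replicate 2. Matrigel against collagen I had 387 calls, 66 with the replicate block fixed and 464 random, 257 with array weights, 68 (without collagen replicate 2) to 352 leaving out 1 array, each over 1.5 times fewer except without plastic replicate 3, and 0 with only these surfaces in limma, where 2094 genes had an unadjusted p under 0.05. Fits on fewer arrays hold fewer samples; for the block and array weights the cause was not tested. Loxl1, Loxl2 and Loxl4 were not run under the alternatives. Of the other calls printed with a p in the report, the fixed block ended those of Rap1a, Sord on collagen I, Gsr and Lox, whose values are given there. The random block gave a call to Gatm on Matrigel (limma, adjusted p = 0.0424). Means near the dim level limit Nox4, and no signal over background is given for these arrays.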
